A study of Mus musculus with 8 samples.

Results

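Loss of Ring1b was examined in mouse bone marrow progenitors that carried no introduced oncogene, by setting the messenger RNA of cells labelled Ring1b KO against that of cells labelled Ring1b WT. The comparison covers every RefSeq transcript with a normalised read count of at least 20 in the higher of the 2 libraries, which is 10826 of 19353 transcripts. Both groups came from C57BL/6 mice whose labels give them as Ring1a-/- and Cdkn2a-/-, so the controls lack these genes by label as well. Lineage-negative (Lin-) cells, which are depleted of mature blood cells, were taken from bone marrow with a progenitor enrichment kit. The KO-labelled cells had received 4-hydroxytamoxifen (OHT), and the WT-labelled cells ethanol (EtOH), each for 72 h. The labels give both as not transduced (NT), but the table's column names call the condition Empty, and whether a vector without insert was present is not known. The labels state neither the driver of the tamoxifen-dependent deletion nor the number or sex of the mice. Each group is 1 library, made with a TruSeq RNA kit that does not mark the strand. There is therefore no replicate and no test within the pair: differences are sizes between these libraries, and OHT as a drug cannot be told apart from the loss of the gene.

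Ring1b, the product of Rnf2, and Ring1a, the product of Ring1, are alternative ubiquitin ligases of Polycomb repressive complex 1 (PRC1). PRC1 marks histone H2A with ubiquitin and keeps genes of other lineages silent, together with the methyltransferase complex PRC2. Its classical targets are homeobox, forkhead, T-box and other developmental genes with CG-rich promoters. In blood progenitors it is also known for silencing the Cdkn2a locus, which encodes the tumour suppressors INK4A and ARF.

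The targeted gene was not lower. Rnf2 (NM_011277) had 802 in the KO-labelled library and 666 in the WT-labelled library, a log2 ratio of 0.27. No label names the exons of Rnf2 that are removed, and a count over the whole transcript can keep reads from the part that remains, so this value checks nothing about the label. Ring1 (NM_009066), labelled as knocked out in both groups, had 43.6 in the KO-labelled and 109 in the WT-labelled library. Of 2 Cdkn2a transcripts, NM_001040654 had 39.5 in the KO-labelled and 18.2 in the WT-labelled library, and NM_009877 had 30.1 in the KO-labelled and 25.6 in the WT-labelled library. Reads were thus present at both genes that the labels give as deleted.

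The KO-labelled library held 5699203 reads and the WT-labelled library 6998223, recovered from the normalised values, and 16% of the transcripts in the KO-labelled and 16.5% in the WT-labelled library stood at the lowest entry of 1 read. The series holds 3 more such pairs, from cells transduced with HOXA9, PML-RARa or MLL-AF9, scaled together with this pair. Of the 28 possible pairings of the 8 libraries, the KO-labelled NT library and the KO-labelled PML-RARa library were the most alike, with a Spearman rank correlation of 0.97 over 10826 transcripts. The KO-labelled NT library had 0.92 with its own WT-labelled library. This was not particular to NT. The KO-labelled HOXA9 and MLL-AF9 libraries came next, at 0.963. The correlation of KO-labelled with WT-labelled library was 0.939, 0.927 and 0.876 in the HOXA9, PML-RARa and MLL-AF9 pairs. As description, these points share gene length and counting method. Stem and progenitor genes were found in both libraries: Gata2 had 4513 in the KO-labelled and 3379 in the WT-labelled library, and Cd34 had 117 in the KO-labelled and 96.8 in the WT-labelled library. Kit (NM_001122733), the stem cell factor receptor, had 26 reads in the KO-labelled and 29 in the WT-labelled library. Low counts also occur at ribosomal protein genes, with Rpl19 (KO-labelled 31.2, WT-labelled 26.5) beside Rpl18 (KO-labelled 968, WT-labelled 817). Whether Kit RNA was scarce or poorly counted was not tested. The T cell gene Cd3e was at the lowest entry, with 1 read in the KO-labelled and 1 in the WT-labelled library. The mast cell protease Cpa3 (KO-labelled 2952, WT-labelled 2321) and the neutrophil peroxidase Mpo (KO-labelled 1065, WT-labelled 3801) were abundant in both, so committed granulocyte and mast cell transcripts were part of each preparation. In bulk RNA, fewer cells of a type and less RNA per cell cannot be told apart.

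Of the 10826 transcripts, 1465 (13.5%) were at least 2-fold higher and 935 (8.64%) at least 2-fold lower in the KO-labelled library, on the log2(value + 1) scale used throughout. At 4-fold the counts were 538 (4.97%) and 258 (2.38%), at 8-fold 188 and 49, and at 16-fold 48 and 13. From 2-fold to 8-fold the share of the differences on the higher side grew. The median log2 ratio was 0.03, with quartiles of -0.38 and 0.49. Transcripts of the higher set were scarce in the control: their median value was 129.9 in the KO-labelled and 33.9 in the WT-labelled library, and 567 of them were under 20 in the WT-labelled library. The lower set had higher read counts in the control, with medians of 67.5 in the KO-labelled and 227 in the WT-labelled library. The exact (Clopper-Pearson) 95% counting interval of the ratio lay wholly beyond 2-fold for 941 of the higher and 529 of the lower transcripts. Such intervals cover counting error alone, since reads without molecular identifiers are not independent molecules and nothing here measures the spread between cultures. At the lower limit of the filter, 173 transcripts with 20 to under 22 in the higher library had a median log2 ratio of 0.13, and 205 left out with 18 to under 20 had -0.08.

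**Figure D1:**
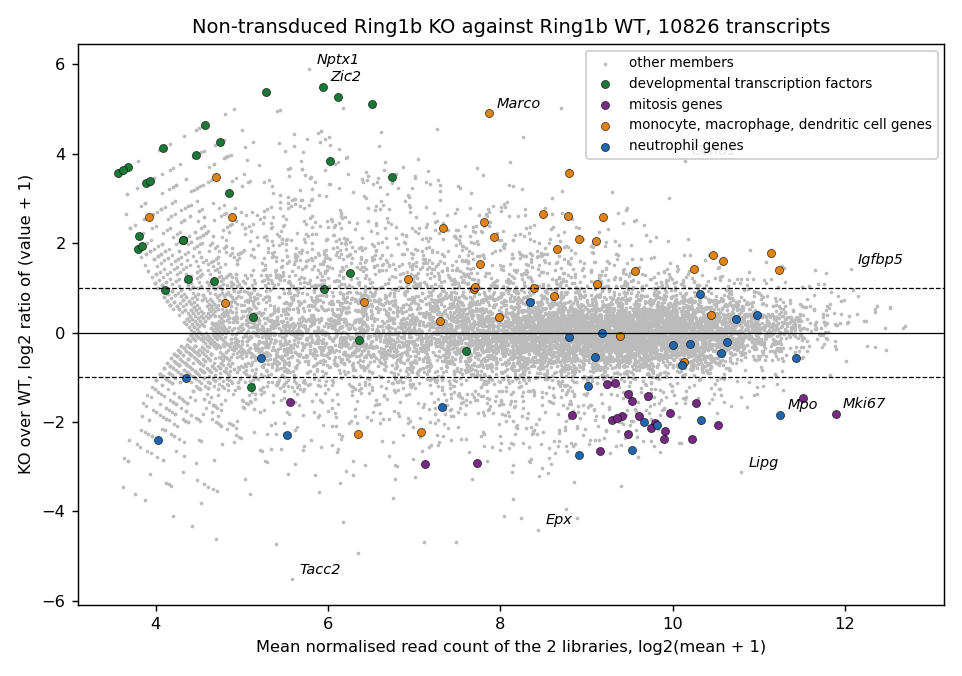
Log2 ratio (KO over WT) of each of the 10826 transcripts against its mean normalised read count in the non-transduced pair, with 4 gene groups in colour and dashed lines at 2-fold. Developmental transcription factors lie at the upper left, low in level and far above 0, and all mitosis genes lie below the lower dashed line at medium and high levels.

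The largest excesses in the KO-labelled library included genes of neural, mesenchymal and gonadal development that the control hardly contained. Nptx1, a neuronal pentraxin of synapses, had 107 in the KO-labelled and 0.827 in the WT-labelled library, which is 103 reads against 1 and a ratio of 129 (counting interval 22.7 to 5158). Zic2, a zinc finger factor of brain development, had 119 in the KO-labelled and 1.65 in the WT-labelled library (ratio 72.2, counting interval 19.5 to 603), and the short stature homeobox gene Shox2 had 74.8 in the KO-labelled and 0.827 in the WT-labelled library (ratio 90.4, counting interval 15.7 to 3621). With 1 or 2 reads in the WT-labelled library the size of these ratios is poorly fixed, as the intervals show, while the KO-labelled library held 72 to 115 reads.

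Among the 15 largest were also the forkhead genes Foxf2, of gut and palate mesenchyme (KO-labelled 134, WT-labelled 2.48), and Foxl2, of the ovary (KO-labelled 44.7, WT-labelled 0.827). The T-box gene Tbx15, of the skeleton, had 176 in the KO-labelled and 4.14 in the WT-labelled library. Foxl2os, transcribed antisense beside Foxl2, had 57.1 in the KO-labelled and 0.827 in the WT-labelled library. With a kit that does not mark the strand, reads where Foxl2 and Foxl2os overlap cannot be told apart. Spock2, a proteoglycan of the extracellular matrix, had 149 in the KO-labelled and 1.65 in the WT-labelled library. Fat1, a giant atypical cadherin, had 83.1 in the KO-labelled and 1.65 in the WT-labelled library. A pair of the 15 had more than a few control reads. Sel1l3 had 808 in the KO-labelled and 24 in the WT-labelled library (ratio 33.7, counting interval 23.3 to 50.6). Marco, a scavenger receptor of macrophages, had 451 in the KO-labelled and 14.1 in the WT-labelled library (ratio 32.1, counting interval 19.8 to 55.5). The others were Asphd2, Trnp1, the RAS-like gene Mras and Klhdc8a, with 43 to 134 reads in the KO-labelled and 1 to 4 in the WT-labelled library.

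The largest deficits were of granule genes and of a mixed group of scarcer transcripts. Epx, the peroxidase of eosinophil granules, had 30.1 in the KO-labelled and 662 in the WT-labelled library, 22-fold lower (counting interval 15.2 to 33). Fcnb, a ficolin that myeloid cells secrete to recognise microbes, had 49.9 in the KO-labelled and 900.1 in the WT-labelled library, 18-fold lower (counting interval 13.5 to 24.6). Prss57, a serine protease of neutrophil granules, had 52 in the KO-labelled and 813 in the WT-labelled library, 15.7-fold lower. These 3 were well counted in the control, with 800 to 1088 reads.

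Lin28a, the RNA-binding protein of fetal and embryonic cells that blocks let-7 maturation, had 31.2 in the KO-labelled and 570.0 in the WT-labelled library (log2 ratio -4.15). The nucleoside transporter gene Slc28a2 had 28.1 in the KO-labelled and 498 in the WT-labelled library, and Siglecg, an inhibitory sialic acid receptor, had 9.35 in the KO-labelled and 266 in the WT-labelled library. The largest log2 ratio below 0 was that of Tacc2, a centrosomal coiled-coil gene, at -5.52, with 1 read in the KO-labelled and 112 in the WT-labelled library (ratio of WT to KO 89.2, counting interval 15.7 to 3553). Glt1d1, Ttc21a, Slc44a4, the lactase gene Lct, Tmc7, Lcn4 and Tfpi2 were also among the 15 largest, with 1 to 12 reads in the KO-labelled and 32 to 415 in the WT-labelled library.

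**Figure D2:**
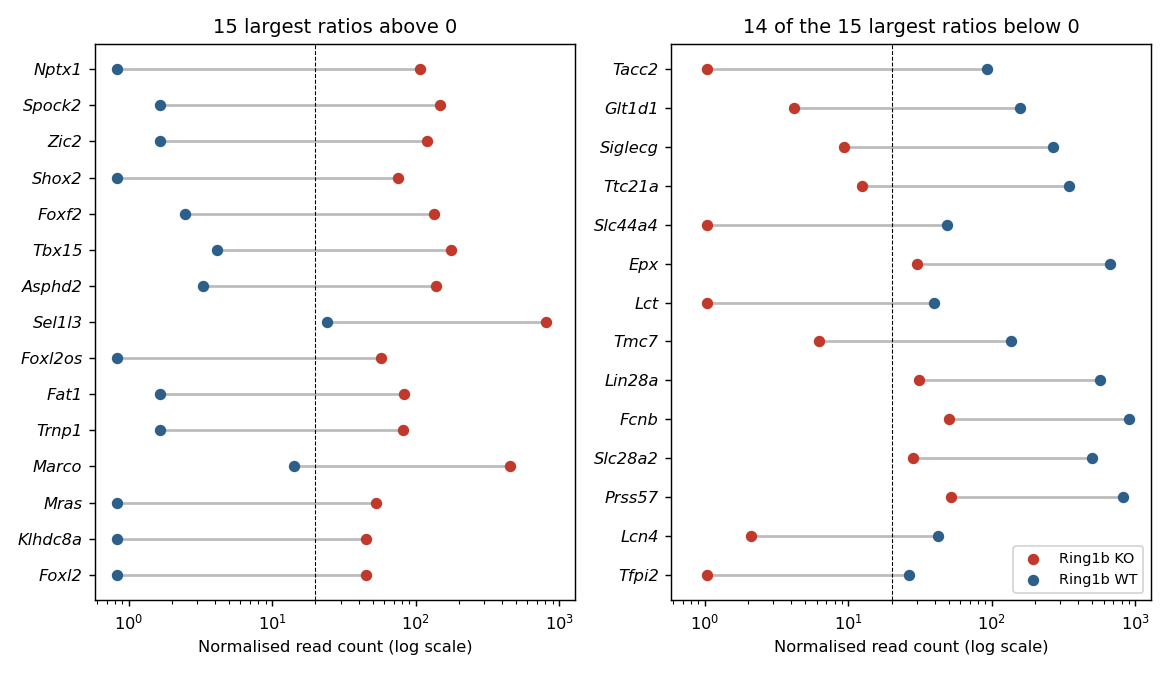
Normalised read count (log axis) in the KO-labelled (red) and WT-labelled (blue) library for the 15 transcripts with the largest log2 ratio above 0 (left) and 14 of the 15 with the largest below 0 (right), with a dashed line at 20. On the left 14 of the 15 control values lie under 20, and on the right the genes with more than 500 in the control are Epx, Lin28a, Fcnb and Prss57.

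Promoters are printed for a pair of genes from each end of the range, because PRC1 is known for its place at CG-rich promoters and these pairs differ in that base content. The sequences are the 250 bases before the start of each gene, from RefSeq on GRCm38.p6, given 5′ to 3′ on the gene's strand, with every CG in capitals. Foxf2 (chr13:31625566-31625815, plus strand) holds 21 CG and Foxl2 (chr9:98955357-98955606, plus strand) 22, while Epx (chr11:87875537-87875786, minus strand) holds 5 and Fcnb (chr2:28084879-28085128, minus strand) 0.
Foxf2: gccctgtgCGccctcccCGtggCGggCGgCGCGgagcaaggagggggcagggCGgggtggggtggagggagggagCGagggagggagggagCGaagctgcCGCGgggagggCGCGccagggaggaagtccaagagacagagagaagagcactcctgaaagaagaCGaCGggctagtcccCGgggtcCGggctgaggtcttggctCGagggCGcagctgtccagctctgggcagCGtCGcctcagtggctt
Foxl2: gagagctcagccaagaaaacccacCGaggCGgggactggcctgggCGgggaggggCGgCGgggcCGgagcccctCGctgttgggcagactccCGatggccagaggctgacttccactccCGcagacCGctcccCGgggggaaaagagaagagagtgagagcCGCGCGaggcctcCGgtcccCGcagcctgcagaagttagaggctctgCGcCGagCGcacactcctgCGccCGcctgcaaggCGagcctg
Epx: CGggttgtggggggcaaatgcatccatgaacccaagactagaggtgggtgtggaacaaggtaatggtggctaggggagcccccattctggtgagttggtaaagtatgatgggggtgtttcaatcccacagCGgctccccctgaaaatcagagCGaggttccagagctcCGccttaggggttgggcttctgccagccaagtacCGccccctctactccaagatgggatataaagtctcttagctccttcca
Fcnb: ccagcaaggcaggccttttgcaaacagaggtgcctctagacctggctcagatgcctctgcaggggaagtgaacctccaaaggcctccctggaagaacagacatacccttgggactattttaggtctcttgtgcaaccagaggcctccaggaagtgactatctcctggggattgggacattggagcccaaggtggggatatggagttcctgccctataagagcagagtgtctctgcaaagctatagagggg

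Across the genes with a promoter in the RefSeq table, 10 or more CG in this window were found in 74.6% of 8429 promoters of the compared genes, against 37.8% of all 32851 promoters. The units differ, since the compared genes have 1 promoter each and the 32851 are every promoter listed for 27025 genes. The share was 62.1% of 1104 among genes at least 2-fold higher and 66.7% of 712 among genes at least 2-fold lower, both under that of all compared genes. The lists differed more. All 8 forkhead, T-box and related factors with a promoter in the table, and 11 of 12 homeobox and Pax genes, had 10 or more CG, while Hox genes had 3 of 6 (50%). So did 17 of 21 mitosis genes, which were lower. Neutrophil genes had 1 of 21, eosinophil genes 0 of 5 and monocyte, macrophage and dendritic cell genes 3 of 21. These counts describe base content and show no binding.

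Developmental transcription factors outside blood, taken from a homeobox and Pax list and a list of forkhead, T-box, GATA, SOX, bHLH and zinc finger genes, were detected more widely in the KO-labelled library. Of all 141 transcripts on the lists, 44 were at the lowest entry in the KO-labelled library and 80 in the WT-labelled library, and 29 against 6 reached 20. Their values summed to 2271 in the KO-labelled and 779 in the WT-labelled library. The 30 that entered the comparison comprised 24 at least 2-fold higher, 1 lower and 5 between, with a median log2 ratio of 3.23. Since 24 of the 30 reached 20 in the KO-labelled library alone, they had to be higher, and the counts over all 141 are the description to read.

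Beside Zic2, Foxf2, Tbx15, Shox2 and Foxl2, the LIM homeobox gene Lhx2 had 49.9 in the KO-labelled and 1.65 in the WT-labelled library, and Six2, a factor of kidney progenitors, had 121 in the KO-labelled and 7.45 in the WT-labelled library. Foxq1 had 195 in the KO-labelled and 16.5 in the WT-labelled library, and the mesenchymal factor Twist1 27 in the KO-labelled and 1.65 in the WT-labelled library. Of the 5 members with at least 20 in both libraries only Foxd2 was past 2-fold (KO-labelled 108, WT-labelled 42.2). Gbx2 (KO-labelled 76.9, WT-labelled 86), already present in the control, was close to equal, and Six4 was the 1 lower member (KO-labelled 19.7, WT-labelled 47.2).

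The Hox genes, the best known PRC1 targets, were detected more widely in the KO-labelled library. Of 40 transcripts, 9 were at the lowest entry in the KO-labelled library and 18 in the WT-labelled library, and 11 entered the comparison, of which 5 were higher and 1 lower (median log2 ratio 0.68). However, 6 of the 11 passed the filter through the KO-labelled library alone and had to be higher in it. The 1 lower member, Hoxa9, passed through the WT-labelled library alone and had to be lower. Of the 4 with at least 20 in both libraries 0 were past 2-fold (median -0.49). Hoxd13, the most distal gene of its cluster, had 54 in the KO-labelled and 2.48 in the WT-labelled library. Hoxd8 had 24.9 in the KO-labelled and 0.827 in the WT-labelled library, Hoxc9 33.2 in the KO-labelled and 2.48 in the WT-labelled library, and Hoxb7 29.1 in the KO-labelled and 2.48 in the WT-labelled library. The direction of these genes was thus fixed by the filter, as was that of Hoxa9, a Hox gene of blood progenitors. Hoxb4 had 134 in the KO-labelled and 178 in the WT-labelled library, and Hoxa9 6.23 in the KO-labelled and 20.7 in the WT-labelled library, from 6 reads in the KO-labelled and 25 in the WT-labelled library.

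Of 14 morphogen and growth factor transcripts in the comparison 11 were at least 2-fold higher and 1 lower. Among them 7 reached 20 in the KO-labelled library alone, which fixed their direction, and of the 5 with at least 20 in both libraries 4 were higher. Of all 55 on the list, 13 were at the lowest entry in the KO-labelled and 21 in the WT-labelled library. The activin subunit genes went apart, with Inhbb at 42.6 in the KO-labelled and 0.827 in the WT-labelled library, and Inhba at 17.7 in the KO-labelled and 117 in the WT-labelled library. The WNT ligand genes Wnt9a (KO-labelled 101, WT-labelled 8.27) and Wnt10b (KO-labelled 39.5, WT-labelled 1.65) and the growth factor gene Fgf15 (KO-labelled 42.6, WT-labelled 1.65) were higher in the KO-labelled library, and so was Bmp7, abundant in both (KO-labelled 1317, WT-labelled 613). Of 59 neuronal and synaptic transcripts, 26 were at the lowest entry in the KO-labelled and 31 in the WT-labelled library. The 10 in the comparison gave 7 higher and 0 lower, of which 5 reached 20 in the KO-labelled library alone, and of the other 5 there were 3 higher. They include the neuronal tubulin gene Tubb3 (KO-labelled 122, WT-labelled 19) and the adhesion molecule gene L1cam (KO-labelled 1349.7, WT-labelled 295).

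Of 24 extracellular matrix transcripts 15 were higher and 0 lower, with a median of 1.38. The gelatinase gene Mmp2 had 203 in the KO-labelled and 16.5 in the WT-labelled library. Loxl2, a collagen cross-linking oxidase, had 1276 in the KO-labelled and 225 in the WT-labelled library, the metalloproteinase inhibitor gene Timp3 1367 in the KO-labelled and 256 in the WT-labelled library, and the basement membrane collagen gene Col4a1 286 in the KO-labelled and 45.5 in the WT-labelled library. Here 17 of the 24 had at least 20 in both libraries, and 10 of these were higher. Stromal markers did not move as 1 group beside them: of 11 stromal and osteolineage transcripts 4 were higher and 1 lower, with 14 of 35 at the lowest entry in the KO-labelled and 13 in the WT-labelled library. Of the 11, 2 (Nes and Krt18) reached 20 in the KO-labelled library alone and 2 (Col1a1 and Lepr) in the WT-labelled library alone, which fixed their direction. Of the 7 with at least 20 in both libraries 2 were higher and 1 lower, where 13.5% and 8.64% of all compared transcripts were. The stromal collagen gene Col1a1 had 14.5 in the KO-labelled and 29 in the WT-labelled library. Nes, Krt18 and Epcam, genes of neural progenitors and epithelia, were higher (126, 175 and 184 in the KO-labelled library, against 8.27, 17.4 and 20.7 in the WT-labelled library). The part of other cell types in these differences was not tested.

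Imprinted and fetal growth genes gave 6 higher and 2 lower of 9 transcripts. Of the 9, 3 reached 20 in the KO-labelled library alone, Phlda2 and Igf2bp1 among them, which fixed their direction. Of the 6 with at least 20 in both libraries 3 were higher and 2 lower. Over all compared transcripts 13.5% were higher and 8.64% lower. Phlda2, an imprinted regulator of placental growth, had 112 in the KO-labelled and 4.14 in the WT-labelled library, and the fetal RNA-binding genes Igf2bp1 and Igf2bp3 had 123 and 457 in the KO-labelled and 4.96 and 108 in the WT-labelled library. Their usual companions Lin28a (above) and Lin28b (KO-labelled 23.9, WT-labelled 75.3) were the 2 lower ones. The embryonic globin gene Hbb-y had 123 in the KO-labelled and 5.79 in the WT-labelled library.

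Genes of cell division were lower as a body. All 25 mitosis transcripts in the comparison were at least 2-fold lower, from -1.13 to -2.94 on the log2 scale with a median of -1.88, and each had at least 20 in both libraries. Mki67, the proliferation marker, had 1674 in the KO-labelled and 5913 in the WT-labelled library. Birc5, encoding survivin of the chromosomal passenger complex, had 31.2 in the KO-labelled and 246 in the WT-labelled library, the phosphatase gene Cdc25c 48.8 in the KO-labelled and 373 in the WT-labelled library, and the kinesin gene Kif2c 156 in the KO-labelled and 984 in the WT-labelled library.

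DNA replication genes were lower to a smaller degree, 25 of 31 past 2-fold with a median of -1.37. Of the 31, 4 reached 20 in the WT-labelled library alone, which fixed their direction, and of the 27 with at least 20 in both libraries 21 were lower. The origin recognition gene Orc1 had 77.9 in the KO-labelled and 434 in the WT-labelled library, and Mcm10 190.1 in the KO-labelled and 984 in the WT-labelled library. The sliding clamp gene Pcna was nearest to equal (KO-labelled 1139, WT-labelled 1343). Ribosome biogenesis genes were all slightly lower without reaching 2-fold in any of 23 (median -0.51), and 29 cytoplasmic ribosomal protein transcripts had a median of 0.24, with none past 2-fold.

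Regulators of the cell cycle entry step behaved differently from the division genes. Ccnd1, encoding cyclin D1, had 2105 in the KO-labelled and 146 in the WT-labelled library, 14.5-fold higher (counting interval 12.4 to 17), and Ccnd2 had 5752 in the KO-labelled and 2967 in the WT-labelled library. Cdkn2b, which encodes the inhibitor INK4B and lies beside Cdkn2a, had 656 in the KO-labelled and 127 in the WT-labelled library, 5.18-fold higher (counting interval 4.33 to 6.22). The inhibitor gene Cdkn2c was lower (KO-labelled 106, WT-labelled 246), and so was the pocket protein gene Rbl1 (KO-labelled 397, WT-labelled 932), while Cdkn1b (KO-labelled 578, WT-labelled 558) and Cdk4 (KO-labelled 1277, WT-labelled 1333) were close to equal.

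Targets of p53 were 12 higher and 1 lower of 26, with a median of 0.88, where 13.5% and 8.64% of all compared transcripts were. Of the 26, 2 reached 20 in the KO-labelled library alone, which fixed their direction. Of the 24 with at least 20 in both libraries 10 were higher and 1 lower. Zmat3 had 1457 in the KO-labelled and 332 in the WT-labelled library, Phlda3 705 in the KO-labelled and 147 in the WT-labelled library, and Bbc3, the pro-apoptotic PUMA, 859 in the KO-labelled and 215 in the WT-labelled library. The inhibitor gene Cdkn1a had a transcript at 45.7 in the KO-labelled and 6.62 in the WT-labelled library, its direction fixed by the filter. Another was at 77.9 in the KO-labelled and 43 in the WT-labelled library. The repair gene Ddb2 was the lower one (KO-labelled 54, WT-labelled 122). In the BCL2 family 5 of 13 were higher and 0 lower, including both the death gene Bmf (KO-labelled 245, WT-labelled 106) and the survival gene Bcl2 (KO-labelled 1339, WT-labelled 592). All 13 had at least 20 in both libraries, and Bbc3 counts among the higher ones of both lists. Bcl2a1b, also higher (KO-labelled 165, WT-labelled 74.5), belongs to a cluster of near-identical copies that can share reads.

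Part of the neutrophil and eosinophil genes were lower. Of 25 neutrophil transcripts 11 were at least 2-fold lower and 0 higher (median -0.58), and their values summed to 18489 in the KO-labelled and 28481 in the WT-labelled library. Among the 25, 3 reached 20 in the WT-labelled library alone, which fixed their direction. Of the 22 with at least 20 in both libraries 8 were lower. The lower ones included the granule proteases Elane (KO-labelled 204, WT-labelled 1272) and Prtn3 (KO-labelled 347, WT-labelled 1458), the peroxidase Mpo, and the transcription factors Cebpe (KO-labelled 126, WT-labelled 839.7) and Gfi1 (KO-labelled 14.5, WT-labelled 75.3). Cd177, a surface protein of neutrophils (KO-labelled 528, WT-labelled 2050.1), Camp (KO-labelled 313, WT-labelled 723) and Olfm4 (KO-labelled 75.8, WT-labelled 243) were lower too. Other members were within 2-fold, among them the granule protease gene Ctsg (KO-labelled 1076, WT-labelled 1277), the collagenase gene Mmp8 (KO-labelled 2281, WT-labelled 1742), S100a8 (KO-labelled 577, WT-labelled 577) and the chemokine receptor gene Cxcr2 (KO-labelled 1643, WT-labelled 908). Eosinophil genes were 4 lower and 0 higher of 8, with Prg3 (KO-labelled 10.4, WT-labelled 103) and Prg2 (KO-labelled 241, WT-labelled 623), which encode granule proteins, beside Epx. Of the 8, 2 reached 20 in the WT-labelled library alone, and of the 6 with at least 20 in both libraries 3 were lower. The summed value of the eosinophil list was 1119 in the KO-labelled and 3040.4 in the WT-labelled library.

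Monocyte, macrophage and dendritic cell genes were 25 higher and 2 lower of 36, with a median of 1.48 and a summed value of 28057 in the KO-labelled and 11536 in the WT-labelled library. Of the 36, 4 reached 20 in the KO-labelled library alone, Marco among them, which fixed their direction. Of the 32 with at least 20 in both libraries 21 were higher and 2 lower. The integrin gene Itgax, or CD11c, had 818 in the KO-labelled and 67.8 in the WT-labelled library, the CSF1 receptor gene Csf1r 1778 in the KO-labelled and 659 in the WT-labelled library, and the complement gene C1qa 622 in the KO-labelled and 98.5 in the WT-labelled library. Lpl, a lipase of lipid-laden macrophages, had 3505 in the KO-labelled and 1023 in the WT-labelled library. The 2 lower members were the chemokine receptor gene Cx3cr1 (KO-labelled 46.8, WT-labelled 222) and the adhesion gene Vcam1 (KO-labelled 27, WT-labelled 134). Cybb, a subunit of the phagocyte oxidase that is on no list here, was lower as well (KO-labelled 1475, WT-labelled 3257).

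Interferon response genes were 22 higher and 0 lower of 31 (median 1.39), with 15 higher among the 23 that had at least 20 in both libraries. Ifit1, an antiviral RNA-binding protein, had 154 in the KO-labelled and 14.1 in the WT-labelled library, Oasl2 264 in the KO-labelled and 25.6 in the WT-labelled library, the ubiquitin-like Isg15 176 in the KO-labelled and 29 in the WT-labelled library, and the RNA sensor gene Ddx58 1015 in the KO-labelled and 423 in the WT-labelled library. Ifit2 was not among them (KO-labelled 141, WT-labelled 187). The motif GAAANNGAAA, or TTTCNNTTTC on the other strand, resembles the element bound by interferon-activated factors. It was present in the 250 bases before the start of 14 of 23 list genes with a promoter in the table (60.9%), against 2.98% of all promoters and 2.72% of those of the compared genes. Among genes at least 2-fold higher, which include those of the list, it was in 4.53%, and among genes at least 2-fold lower in 2.53%. The list was picked as interferon response genes, so its share describes the list and not this pair, and shows no binding. The promoter of Ifit1 (chr19:34640639-34640888, plus strand) is shown as an example, with its 2 matches in capitals.
Ifit1: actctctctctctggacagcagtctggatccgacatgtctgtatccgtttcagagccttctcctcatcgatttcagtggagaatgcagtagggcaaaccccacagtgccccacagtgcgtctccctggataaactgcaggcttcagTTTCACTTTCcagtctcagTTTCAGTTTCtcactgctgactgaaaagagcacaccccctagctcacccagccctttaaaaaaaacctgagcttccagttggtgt

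Megakaryocyte and platelet genes were 9 higher and 0 lower of 22 (median 0.89), with Gp5 at 1165 in the KO-labelled and 299 in the WT-labelled library and Itgb3 at 3665 in the KO-labelled and 1340.3 in the WT-labelled library. All 25 mast cell and basophil transcripts were above 0 but only 4 past 2-fold (median 0.52), led by the serotonin transporter gene Slc6a4 (KO-labelled 1298, WT-labelled 227). Reads lay densely on some of them, with 1.96 reads per base at Cpa3 in its denser library. Erythroid genes had a median of -0.06, with Epor higher (KO-labelled 211, WT-labelled 86.9) and Ermap lower (KO-labelled 6.23, WT-labelled 38.1). Endothelial genes were 4 higher and 0 lower of 8, and lymphoid genes 3 higher and 1 lower of 7. In each of these lists 2 members reached 20 in the KO-labelled library alone, which fixed their direction. With at least 20 in both libraries there were 6 endothelial transcripts, 2 higher and 0 lower, and 5 lymphoid ones, 1 higher and 1 lower. Over all compared transcripts 13.5% were higher and 8.64% lower.

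Of 28 stem and progenitor transcripts 8 were higher and 4 lower (median 0.22), where 13.5% and 8.64% of all compared transcripts were. The 4 lower ones reached 20 in the WT-labelled library alone, which fixed their direction. Of the 24 with at least 20 in both libraries 8 were higher and 0 lower. Procr, which marks haematopoietic stem cells, had 218 in the KO-labelled and 25.6 in the WT-labelled library, Mecom 379 in the KO-labelled and 171 in the WT-labelled library, and Meis1, a cofactor of HOX proteins, 69.6 in the KO-labelled and 22.3 in the WT-labelled library. Myb, a factor of proliferating progenitors, was among the 4 fixed by the filter (KO-labelled 19.7, WT-labelled 72). Erg (KO-labelled 289.9, WT-labelled 574) and Cebpa (KO-labelled 756, WT-labelled 1389.9) were lower but just inside 2-fold.

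**Figure D3:**
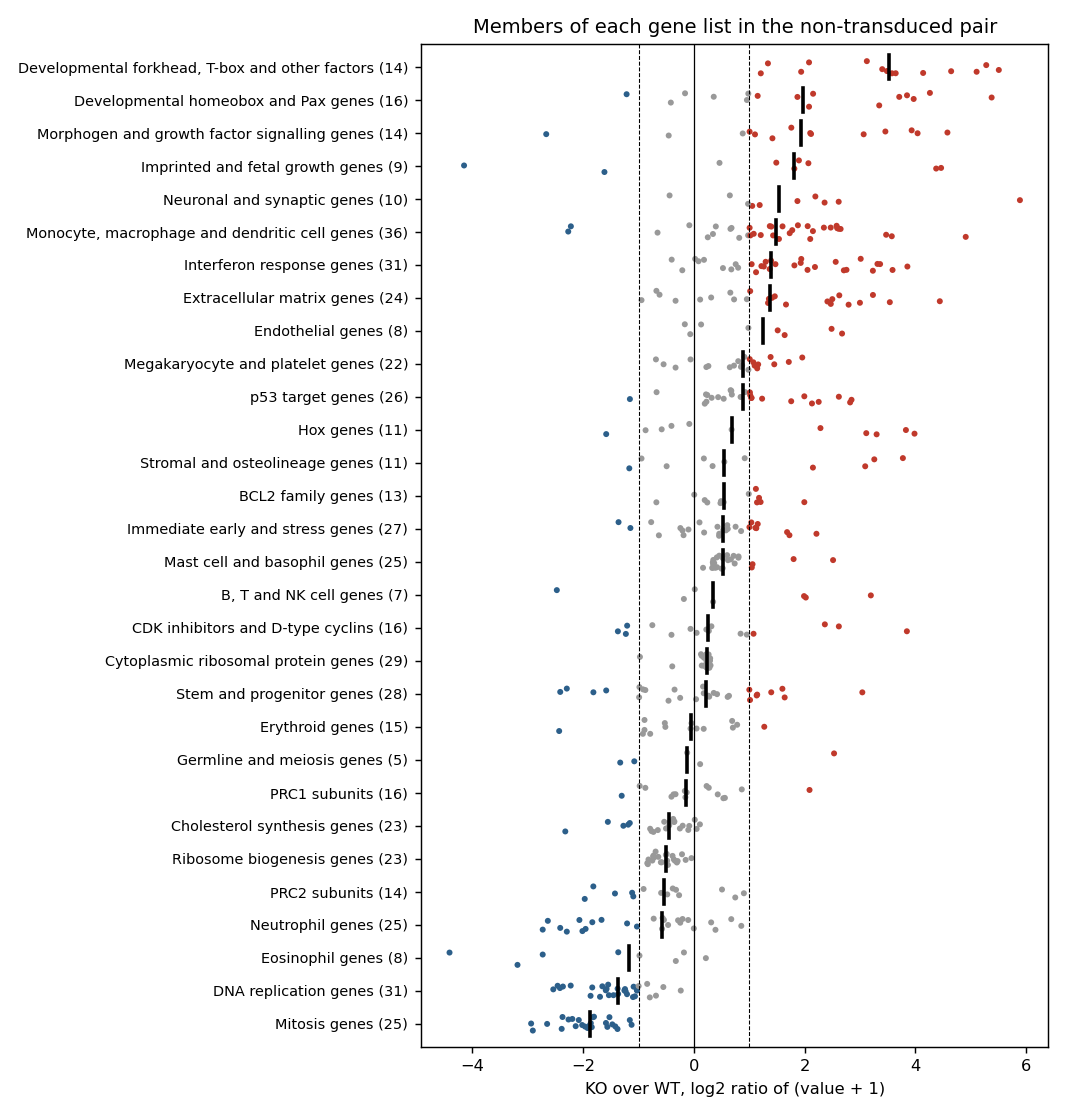
Log2 ratio (KO over WT) of each member of 30 gene lists in the non-transduced pair, 1 point a transcript, with the number of members in brackets, black bars at the medians, and dashed lines at 2-fold. Red points are at least 2-fold higher and blue points at least 2-fold lower. The lists run from developmental factors at the top, at a median of 3.53, to mitosis genes at the bottom, at -1.88.

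Polycomb genes themselves differed little on the PRC1 side. Of 16 transcripts 1 was higher, Auts2 (KO-labelled 112, WT-labelled 25.6), and 1 lower, Ring1. Of 14 PRC2 transcripts, from 13 genes, 5 were lower and 0 higher, including the accessory subunit gene Phf19 (KO-labelled 164, WT-labelled 443). Mtf2 entered with more than 1 transcript (log2 ratios of -1.09 and -1.82). Of the 14, 3 reached 20 in the WT-labelled library alone and had to be lower in the KO-labelled one. Of the 11 with at least 20 in both libraries 3 were at least 2-fold lower, where 8.64% of all compared transcripts were. The catalytic subunit gene Ezh2 (7 reads in the KO-labelled and 38 in the WT-labelled library) and the core subunit gene Suz12 (KO-labelled 23, WT-labelled 64) were counted poorly. Cholesterol synthesis genes were 5 lower and 0 higher of 23 (median -0.45), with Fdps at 22.9 in the KO-labelled and 118 in the WT-labelled library. Of 27 immediate early and stress genes 8 were higher and 2 lower. Atf3 had 490.4 in the KO-labelled and 105 in the WT-labelled library, and the haem oxygenase gene Hmox1 1804 in the KO-labelled and 545 in the WT-labelled library, while Fosb was lower (KO-labelled 102, WT-labelled 263). Of 5 germline and meiosis transcripts the meiotic cohesin gene Rec8 was higher (KO-labelled 774, WT-labelled 133), and Stag3 (KO-labelled 39.5, WT-labelled 84.4) and Syce2 (KO-labelled 20.8, WT-labelled 53.8) were lower.

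Among abundant transcripts at least 2-fold apart, the highest read count in the KO-labelled library, which also grows with transcript length, was that of Igfbp5, which encodes a binding protein of insulin-like growth factors (6225, against 2333 in the WT-labelled library). It was followed by Tgfbr1, a TGF-beta receptor gene (KO-labelled 5021, WT-labelled 1979.8), the platelet gene Plek (KO-labelled 4690.1, WT-labelled 2193), Ahnak (KO-labelled 4679.7, WT-labelled 1770.5) and the thrombin receptor gene F2r (KO-labelled 4486, WT-labelled 2115). On the lower side the highest control read counts after Mki67 were those of Top2a, the topoisomerase of dividing cells (KO-labelled 1542, WT-labelled 4282), Atp8b4 (KO-labelled 1089.9, WT-labelled 3813) and Mpo. They also include the complement gene C3 (KO-labelled 1447, WT-labelled 3541) and the endothelial lipase gene Lipg (KO-labelled 366, WT-labelled 3188, 8.72-fold lower). Most of these exceed 0.5 reads per base in at least 1 of the libraries.

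The 3 transduced pairs were set beside this pair to ask what differs without an oncogene. They come from separate libraries and share no control with it. Of the 1465 higher transcripts, 50.2% were also at least 2-fold higher in the MLL-AF9 pair, 36.5% in the PML-RARa pair and 31.5% in the HOXA9 pair, which is 46.9%, 55.2% and 46.8% of the higher transcripts of those pairs. Over all 10826 transcripts the share higher in those pairs was 12.6%, 8.08% and 7.57%. Of the 935 lower transcripts, 57.0%, 54.7% and 17.3% were also lower in the MLL-AF9, PML-RARa and HOXA9 pairs, or 31.5%, 34.5% and 24.4% of theirs, where 13.2%, 10.7% and 4.42% of all were lower. Of the higher transcripts 233 (15.9%) were higher in all 3 other pairs and 454 (31.0%) in none, where 2.95% and 82.0% of all 10826 were. Of the lower transcripts 109 (11.7%) were lower in all 3 and 247 (26.4%) in none, where 1.71% and 80.2% of all were.

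Whether a ratio of this pair differs from the other 3 was tested with limma on the 4 ratios, where the lone NT ratio is assumed to vary as the others do. None of 10599 transcripts passed (0%, smallest Benjamini-Hochberg adjusted p = 0.70). At an unadjusted p under 0.05 there were 573, of which 362 had a higher and 211 a lower ratio in NT. edgeR on recovered reads also called 0, with 580 at an unadjusted p under 0.05. DESeq2 on the same reads called 64 (0.604%), 27 higher and 37 lower in NT. The number of calls thus depends on the tool, and no gene is called particular to the non-transduced cells. The values that follow describe transcripts with the lowest p in limma or DESeq2.

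With a higher ratio in NT, the microtubule-associated protein gene Map1b had a log2 ratio of 3.47 here and -0.22, -0.34 and -0.77 in the HOXA9, PML-RARa and MLL-AF9 pairs (difference 3.91 ± 0.36 (SE), limma adjusted p = 0.70, DESeq2 adjusted p = 1.8e-05). Its value was 175 in the KO-labelled and 14.9 in the WT-labelled NT library. In the transduced libraries it was 117, 321 and 315 in the KO-labelled and 136, 406 and 538 in the WT-labelled ones (HOXA9, PML-RARa and MLL-AF9). The library out of range was thus the WT-labelled NT one, and the KO-labelled NT value lay among the transduced values.

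The same held for Igf2r, the receptor that clears IGF2, at 1763 in the KO-labelled and 217 in the WT-labelled NT library, with 1580 to 4312 in the 6 transduced libraries (limma adjusted p = 0.79, DESeq2 adjusted p = 4.5e-06). Zcchc14 had 278 in the KO-labelled and 34.7 in the WT-labelled library here, with 296 to 699 elsewhere, although its KO-labelled NT value was just under that range (limma adjusted p = 0.70, DESeq2 adjusted p = 1.8e-05). The lipase gene Dagla, the kinase gene Pdk2 and the netrin receptor gene Unc5a also had a higher ratio here, at 3.83, 2.29 and 1.99 on the log2 scale. In the HOXA9, PML-RARa and MLL-AF9 pairs Dagla had 0.49, -0.23 and -0.03, Pdk2 -0.22, 0.01 and 0.03, and Unc5a -0.62, -0.89 and -0.36.

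Transcripts with a lower ratio in NT included the chemokine genes Ccl12 and Cxcl10 and the RNA sensor gene Tlr7. Whether genes of these kinds are more frequent there than among all tested transcripts was not tested. Ccl12, which attracts monocytes, had a log2 ratio of 2.24 here and 6.34, 6.12 and 5.71 in the HOXA9, PML-RARa and MLL-AF9 pairs (limma adjusted p = 0.70, DESeq2 adjusted p = 0.0063). Cxcl10 had 1.37 here and 4.84, 4.76 and 5.38 there (limma adjusted p = 0.70, DESeq2 adjusted p = 0.0071). Tlr7, a sensor of single-stranded RNA, had 219 in the KO-labelled and 90.2 in the WT-labelled NT library, but 238 to 941 in the KO-labelled and 10.5 to 22.4 in the WT-labelled transduced libraries (limma adjusted p = 0.81, DESeq2 adjusted p = 2.4e-05). P2ry13, a purine receptor gene, was near equal here (KO-labelled 79, WT-labelled 98.5), with log2 ratios of 2.77, 2.81 and 2.68 elsewhere.

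Spock2, among the largest excesses here, had a log2 ratio of 5.82 in NT and -2.44, 1.02 and 0.07 in the HOXA9, PML-RARa and MLL-AF9 pairs (limma adjusted p = 0.82, DESeq2 adjusted p = 0.028). The collagen gene Col4a1 had 2.62 in NT and -1.04, 0.15 and -0.48 in those pairs, and Fam83g 3.51 in NT and -1.06, -1.09 and -0.00 there. In both genes the WT-labelled NT library was the lowest of its kind, with 45.5 for Col4a1 against 1588, 1695 and 303 in the WT-labelled transduced libraries.

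On the other side, the lipase gene Lipg had 366 in the KO-labelled and 3188 in the WT-labelled NT library, with 3475, 2498 and 1673 in the KO-labelled and 3738, 4066 and 3652 in the WT-labelled HOXA9, PML-RARa and MLL-AF9 libraries (limma adjusted p = 0.82, DESeq2 adjusted p = 8.2e-05). Here the KO-labelled NT library was the one out of range. Antiviral genes were among the DESeq2 calls as well. Ifit2 had a log2 ratio of -0.40 in NT and 4.66, 3.55 and 2.68 in the HOXA9, PML-RARa and MLL-AF9 pairs (limma adjusted p = 0.82, DESeq2 adjusted p = 0.00032), and the nucleotide kinase gene Cmpk2 -0.66 in NT and 3.60, 1.79 and 4.04. Their WT-labelled NT values were 187 and 363, against 12.4 to 166 and 67.8 to 105 in the WT-labelled transduced libraries. Among other transcripts with a lower ratio in NT, Rgs13, a regulator of G protein signalling, had 3.12 in the KO-labelled and 34.7 in the WT-labelled library, Kcnk12 14.5 in the KO-labelled and 200.2 in the WT-labelled library, and Slco4c1 19.7 in the KO-labelled and 199 in the WT-labelled library. In the transduced cells Rgs13 was counted above the lowest entry only in the PML-RARa pair (KO-labelled 72.6, WT-labelled 54.5), Kcnk12 was highest in the MLL-AF9 pair (KO-labelled 64.1, WT-labelled 107), and Slco4c1 in the HOXA9 pair (KO-labelled 79.6, WT-labelled 125).

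Direct opposition was rare. Transcripts at least 2-fold higher here and at least 2-fold lower in all 3 transduced pairs were Gm996, Dact3, 1810010H24Rik, H2-Ob, Echdc3, Rasl11a and Rnf208, all under 100 in both NT libraries. The reverse held for Cybb alone, with -1.14 here and 1.22, 3.69 and 3.28 in the HOXA9, PML-RARa and MLL-AF9 pairs (limma adjusted p = 0.83, DESeq2 adjusted p = 0.0036). C3 had -1.29 here and 0.36, 0.50 and 0.48 there (limma adjusted p = 0.82, DESeq2 adjusted p = 0.00016).

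**Figure D4:**
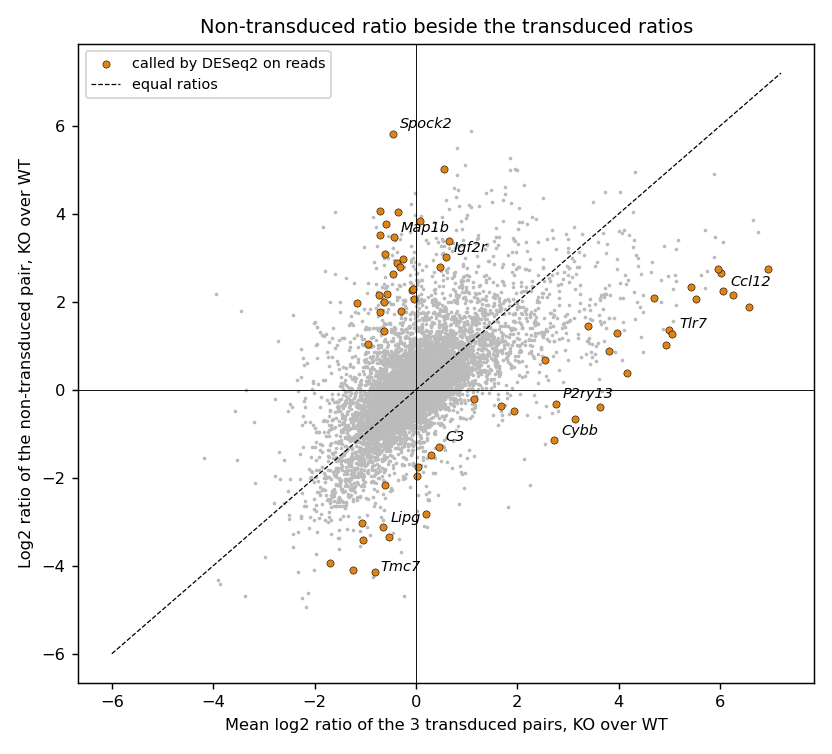
Log2 ratio (KO over WT) of the non-transduced pair against the mean log2 ratio of the 3 transduced pairs for the 10599 tested transcripts, with a dashed line where they are equal. Orange points are the 64 called by DESeq2 on recovered reads, and limma called 0. Ccl12 and Tlr7 lie below the dashed line, with larger ratios in transduced cells, and Map1b and Igf2r lie above it, with larger ratios in non-transduced cells.

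List medians are given beside these as description. Macrophage genes had 1.48 here and 2.63, 2.82 and 5.37 in the HOXA9, PML-RARa and MLL-AF9 pairs, and the NT ratio was the lowest of the 4 for 25 of 36 transcripts, against 2401 of all 10826. Interferon genes had 1.39 here and 2.65, 1.71 and 3.25 there, lowest in NT for 17 of 31. Mitosis genes had -1.88 here and -0.65, -1.59 and -1.55 there, lowest for 17 of 25. Eosinophil genes had -1.17 here and -0.27, -0.27 and -0.49 there, lowest in NT for 7 of 8. List members entered by their NT values, and 2 of these 8 reached 20 in the WT-labelled NT library alone, which fixed a ratio below 0 in NT.

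Levels in the 8 libraries are given for single transcripts and for whole lists. Zic2 had 119 in the KO-labelled and 1.65 in the WT-labelled NT library, and 121, 91.6 and 64.1 in the KO-labelled against 146, 220.1 and 3.18 in the WT-labelled HOXA9, PML-RARa and MLL-AF9 libraries. Of the 141 developmental transcripts, 88 were at the lowest entry in the WT-labelled MLL-AF9 library, close to the 80 of the WT-labelled NT library, and 39 each in the WT-labelled HOXA9 and PML-RARa libraries. Their summed value was nonetheless 4180.4 in the WT-labelled MLL-AF9 library, against 779 in the WT-labelled NT library. In the KO-labelled transduced libraries the number at the lowest entry was 36 to 47, near the 44 of the KO-labelled NT library.

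Foxf2 had 134 in the KO-labelled NT library, against 7.24, 59.5 and 15 in the KO-labelled HOXA9, PML-RARa and MLL-AF9 libraries. For mitosis genes the WT-labelled NT library was above all 6 transduced libraries for 20 of 25, where the share over all members was 18.9%, and the KO-labelled NT library lay within the range of the 6 transduced libraries for all 25. Mki67 had 1674 in the KO-labelled and 5913 in the WT-labelled NT library and 1688 in the KO-labelled and 4243 in the WT-labelled MLL-AF9 library. For replication genes the WT-labelled NT library was above all 6 for 23 of 31.

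**Figure D5:**
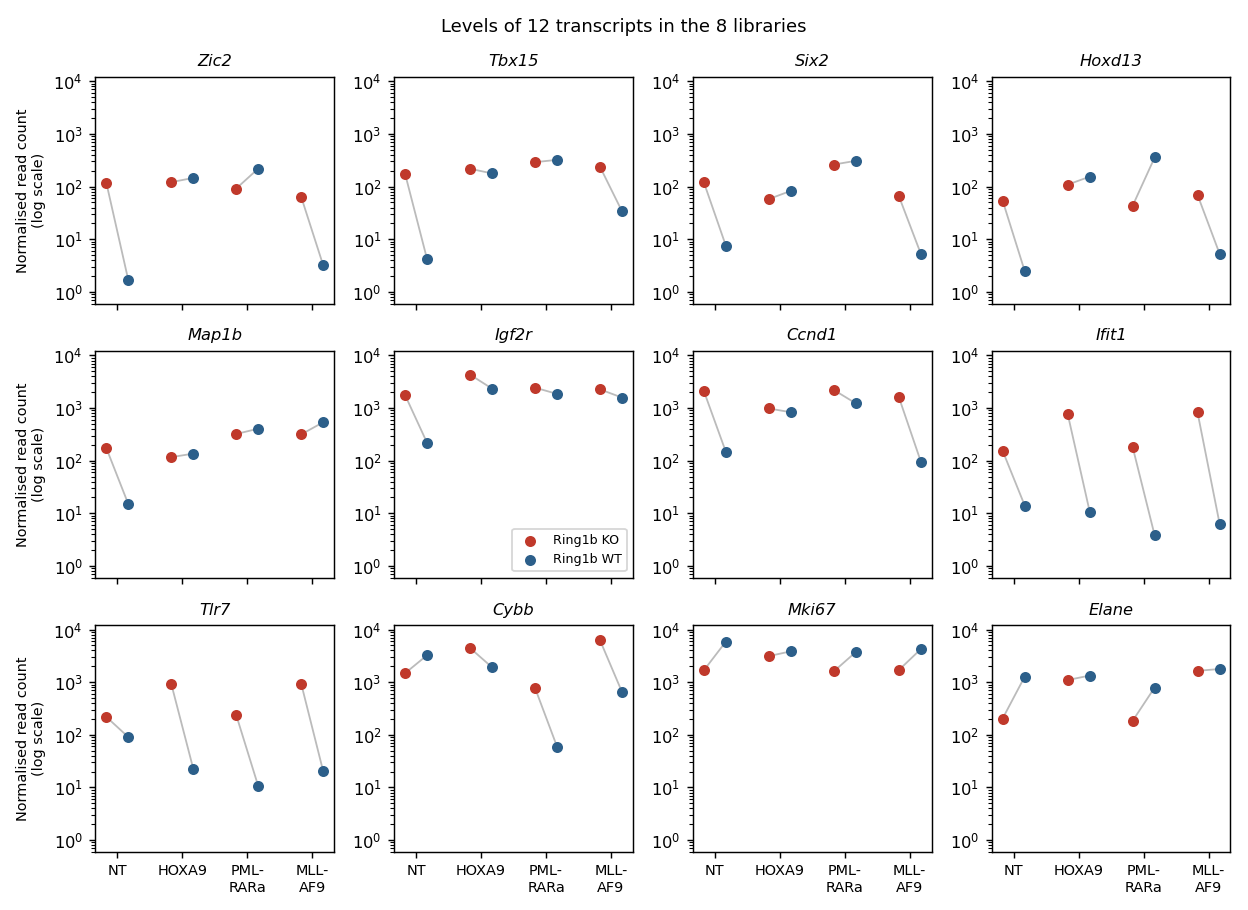
Normalised read count (log axis) of 12 transcripts in the 4 pairs, with the KO-labelled library (red) left of the WT-labelled library (blue), 1 library a point. For Zic2, Tbx15, Six2, Hoxd13 and Ccnd1 the drop between the KO-labelled and the WT-labelled library is larger in the NT and MLL-AF9 pairs than in the other 2, for Map1b and Igf2r the WT-labelled NT library alone is far lower, and for Tlr7 and Cybb the NT pair is flatter than or opposite to the others.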

How the data were processed

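Signal was taken from 4 deposited tables, in which a normalised read count (headed base mean) is listed for each of 19353 RefSeq transcripts (17551 symbols) and each library, per the file headers. The ratio (fold), log2 and p-value columns of the authors were used only where named. The submitters' processing notes name TopHat, DESeq and mm9 without version or order. The read counter and the annotation release were not given in the sources used here. For the NT pair, 36 symbols differ from the other tables and were taken from those by RefSeq identifier; 19076 identifiers matched the reference table. Values were whole multiples of 1 read for 100% of entries (tolerance 0.02), which gave the reads. The lowest entry is 1 read, which may also hold transcripts without any.

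Ratios are differences of log2(value + 1), which understates changes of low transcripts, for transcripts with at least 20 in the higher library. Counting intervals are 95% exact binomial ones on the reads. The 4 pair ratios were compared by limma 3.58.1 (R 4.3.3; two-sided, Benjamini-Hochberg over 10599 transcripts with a mean of at least 20, threshold 0.05); edgeR 4.0.16 and DESeq2 1.42.0 on the reads are alternatives. Other values were computed in Python 3.11.15 with pandas 2.3.3, numpy 2.4.6 and scipy 1.17.1. The procedure was tested on simulated data. The 33 gene lists and the members were chosen with earlier results of these data known. Named genes are the targeted and label-deleted genes, the 15 largest ratios each way, the 10 most abundant past 2-fold each way, the 15 of lowest p each way against the other pairs, and up to 4 extremes each way per list; further list members, genes called by DESeq2 alone and those opposite in all pairs were named after their values were seen. A few genes that the rule names are not reported here. Promoters came from RefSeq (GRCm38.p6, 250 bases before the start). The first window listed of each gene was used for the compared genes and their groups, and every window for the shares of all promoters. Levels across pairs are set side by side because size factors (0.962 and 1.21 in the KO-labelled and WT-labelled NT libraries) were joint over the 8 libraries. Alternatives changed the pseudocount (10), scaling, centring, filters, the transcripts above 0.5 reads per base, and the pairs used.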

Additional observations from a re-analysis of the deposited data

How the results depend on the processing

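With no filter on low values 2554 transcripts were at least 2-fold higher and 1542 lower of 19353, and with a minimum of 100 in the higher library 835 and 594 of 8209. A pseudocount of 10, scaling by total reads, centred ratios, 1 transcript a gene and leaving out transcripts over 0.5 reads per base kept both counts within 1.5 times, at 1259 to 1437 higher and 767 to 972 lower. In the test of the NT ratio against the other pairs, DESeq2 on recovered reads called 64, and limma called 0 to 0 without any 1 transduced pair (285, 820 and 855 at an unadjusted p under 0.05 without HOXA9, PML-RARa and MLL-AF9), 0 with a pseudocount of 10, with no filter and with centred ratios. The cause of the difference between tools was not tested. Of 33 list medians 12 moved with no filter, 10 without transcripts over 0.5 reads per base, 4 with a minimum of 100 and 1 with a pseudocount of 10. The forkhead, T-box and related list had 1.80 with a pseudocount of 10 and 0.75 with no filter, against 3.53, where most transcripts are near the lowest entry, and neuronal genes had 0.21 with no filter, against 1.53, and PRC1 subunits 0.16, against -0.14. Neutrophil genes had -1.35 over the 6 transcripts under 0.5 reads per base. No paired analysis was possible because, within the NT pair, each group holds 1 library. The test across pairs compares the ratio of each pair. An entry of 1 read limits ratios of scarce transcripts, and high read density those of abundant ones.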

Other observations

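In the authors' deposited table for this pair, 564 transcripts have an unadjusted p under 0.05, with 383 higher and 181 lower in the KO-labelled library, and 0 remain after a Benjamini-Hochberg adjustment added here. That p compares 1 library with 1 library. Reads of the X-inactivation gene Xist (KO-labelled 2193, WT-labelled 2408) and of the Y-linked gene Ddx3y (KO-labelled 615, WT-labelled 545) were present in both libraries.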
